A study of Mus musculus with 31 samples.

Results

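The 36 constitutive subunit genes of the 26S proteasome were followed through 31 RNA sequencing samples of Panc02 cells, a murine pancreatic adenocarcinoma line. The members were the symbols made of Psma, Psmb, Psmc or Psmd and a number, without the immunoproteasome subunits Psmb8, Psmb9 and Psmb10, which gave 36 of 55487 gene entries in the table of conditioned media, of 56980 in the table of 2D and 3D culture and of 56941 in the table of overexpression. Of these, 14 encode the core particle, 20 the regulatory particle or its assembly chaperones, and 2 (Psma8 and Psmb11) the subunits of tissue-restricted proteasomes. Psma8 and Psmb11 had at most 10 and 18 counts in any library, in libraries whose totals ran from 41542533 to 78498230 counts, so the account is about the other 34 genes, which passed the filter on low counts in each of the 3 tables.

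In the first experiment, spheroids of unmodified Panc02 cells in Matrigel received control medium (Ctrl), medium conditioned by unstimulated macrophages (M0-CM) or medium conditioned by macrophages given IFNγ and LPS (M1-CM), with 3 samples each. In the second, WT cells and Cxcl5-/- cells were grown in 2D or as 3D spheroids, with 3 samples for each of the 4 groups. In the third, which is called the overexpression series here, 3D-cultured WT (2 samples), Cxcl5-/- (2 samples), Hif1αOE Cxcl5-/- (3 samples) and MycOE Cxcl5-/- cells (3 samples) were compared, the last groups being Cxcl5-/- cells that carried a stabilized Hif1α or Myc from a retroviral vector. The Cxcl5-/- cells were made with a lentiviral Cas9 guide construct and selected with puromycin, and the sources used here do not state whether they are 1 clone. The study pooled spheroids for its 3D samples in qRT-PCR, flow cytometry and metabolite measurements. Its methods do not state this for the sequenced samples. The study speaks of biological replicates in general, but the sources used here do not tie the samples of a group to separate cultures, so p-values measure the spread between these samples, which may be technical. The labels of the overexpression series number the cell line onwards from sample to sample, while the study's methods name Panc02, which was followed.

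The 26S proteasome degrades proteins tagged with ubiquitin. Its core particle is a barrel of stacked rings, in which the alpha subunits (Psma genes) gate the entrance and the beta subunits (Psmb genes) line the chamber. Psmb6, Psmb7 and Psmb5 carry the caspase-like, trypsin-like and chymotrypsin-like active sites. The regulatory particle caps the barrel: its base holds a ring of ATPases (Psmc genes) that unfold the substrate and the scaffold subunits Psmd1 and Psmd2 and the ubiquitin receptor Psmd4, and its lid (the other Psmd genes) contains Psmd14, the enzyme that cuts ubiquitin from the substrate. Psmd5, Psmd9 and Psmd10 are chaperones that help to assemble the base and are absent from the finished particle. When the proteasome is impaired, the transcription factor Nfe2l1 raises the subunit genes together through antioxidant response elements in their promoters, and tumour cells, which make much protein, depend on the particle.

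The promoters of members are shown because these genes moved together in several comparisons. Of the 36 members, 29 had 31 RefSeq promoter windows of 300 bases (250 before and 50 after the start, GRCm38.p6), and 5 of the 31 (16.1%) held the antioxidant response core TGACNNNGC on either strand, against 12.4% of all 32851 promoters and 13% of the 21262 promoters of protein-coding genes. The 5 belonged to Psmb5, Psmb6, Psmc6, Psmd9 and Psmd12. The 250 bases before the start of the catalytic subunits Psmb5 (minus strand, chr14:54617996-54618245) and Psmb6 (plus strand, chr11:70525107-70525356) hold 1 such stretch each, in capitals below, which ends 38 bases before the start in Psmb5 and 0 bases before it in Psmb6. The lid subunit Psmd8 (gene at chr7:29174188-29180701; shown on the minus strand, chr7:29180674-29180923) is shown because it departed most from the other members, and its window holds no such stretch. Each is written 5′ to 3′ on the strand of the gene.
Psmb5: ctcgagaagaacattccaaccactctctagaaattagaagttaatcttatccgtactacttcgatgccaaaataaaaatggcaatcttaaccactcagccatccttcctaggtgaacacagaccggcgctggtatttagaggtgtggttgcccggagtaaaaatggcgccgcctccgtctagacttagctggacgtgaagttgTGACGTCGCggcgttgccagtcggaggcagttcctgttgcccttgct
Psmb6: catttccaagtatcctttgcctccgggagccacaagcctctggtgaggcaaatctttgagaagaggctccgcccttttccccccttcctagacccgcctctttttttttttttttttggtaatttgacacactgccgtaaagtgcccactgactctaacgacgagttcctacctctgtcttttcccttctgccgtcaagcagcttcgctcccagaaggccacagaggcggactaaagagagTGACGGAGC
Psmd8: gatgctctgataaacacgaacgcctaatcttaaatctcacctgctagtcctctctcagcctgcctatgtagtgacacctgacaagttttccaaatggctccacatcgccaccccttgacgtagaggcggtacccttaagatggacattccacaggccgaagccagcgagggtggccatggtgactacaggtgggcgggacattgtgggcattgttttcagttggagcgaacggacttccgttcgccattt

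The other motifs were searched in the same windows on both strands. The E-box CACGTG was in 6.45% of the members' promoters, 7.15% of all promoters and 7.84% of those of protein-coding genes, and the CCAAT box in 38.7%, 37.4% and 38.2%. The hypoxia response core was found as ACGTG in 19.4%, 19.6% and 20.9%, and as GCGTG in 45.2%, 32.4% and 38.5%. ACGTG lies within CACGTG, and TGACNNNGC can share bases with ACGTG and GCGTG. These matches describe the letters of the windows and show no binding.

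The genes targeted in the study were read first, in CPM, library-size-scaled counts with TMM factors. Cxcl5 averaged 47.3 ± 1.78 CPM in 2D WT cells against 34.3 ± 2.70 in 2D Cxcl5-/- (SD, n = 3 each; log2 fold change -0.47, SE 0.14, edgeR adjusted p = 0.0705). In 3D its mean was 27.0 ± 2.17 CPM for WT but 50.6 ± 13.1 for the libraries labelled Cxcl5-/- (0.91, SE 0.14, edgeR adjusted p = 0.000173), which goes against the label, so the group is named by its label in what follows. In the same comparison Hif1a changed by -1.21 (SE 0.10, edgeR adjusted p = 4.13e-07) and Myc by -1.75 (SE 0.12, adjusted p = 8.94e-08). A guide-directed cut need not lower the transcript. In the overexpression series Cxcl5 fell by 0.78 on the log2 scale in Cxcl5-/- (SE 0.14, edgeR adjusted p = 0.00107), Hif1a was 0.94 higher in Hif1αOE Cxcl5-/- (SE 0.10, adjusted p = 2.99e-05) and 0.90 higher in MycOE Cxcl5-/- (SE 0.10, adjusted p = 3.08e-05) than in Cxcl5-/-, and Myc was 4.54 higher in MycOE Cxcl5-/- (SE 0.16, adjusted p = 1.93e-08).

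Of the markers that define an epithelial line, Epcam and Cdh1 were at or under 0.609 CPM in every library, while Krt8 and Krt18 were at 134 CPM or more and 33.3 CPM or more. The leukocyte markers Ptprc, Adgre1, Csf1r, Itgam, Fcgr1 and Tyrobp were at or under 1.92 CPM and Cd68 at 0.919 to 11.2 CPM. In bulk samples, fewer cells of a type and less RNA per cell cannot be told apart. Libraries stood apart in the subunit genes themselves: replicate 2 of M1-CM lay 0.69 below the table's mean in the median core gene (log2), and replicates 1 and 2 labelled 3D Cxcl5-/- lay 0.36 and 0.99 below it. TMM factors were 0.820 to 0.912 in 3D WT and 1.01 to 1.22 in the libraries labelled 3D Cxcl5-/-, so the comparison of these groups depends on the scaling.

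**Figure D1:**
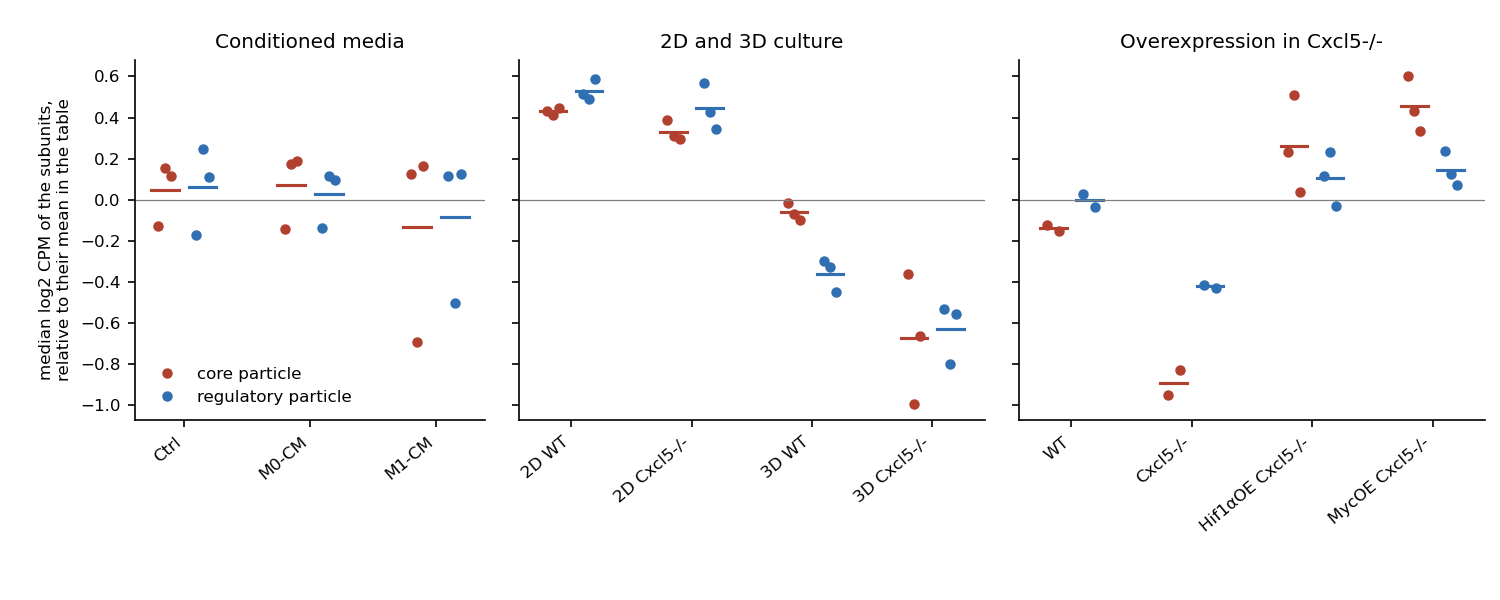
Median log2 CPM of the 14 core genes (red) and the 20 regulatory genes (blue) in each sample, relative to the mean of each gene over the samples of its table (y axis, log2 units), with 1 panel for each table and a bar at the group mean. In the culture table the genes sat highest in 2D and lowest in the libraries labelled 3D Cxcl5-/-, and in the overexpression series they sat lowest in Cxcl5-/-, where the core genes averaged -0.89.

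Levels per length gave the starting point. In 2D WT cells the core genes had a median of 144 CPM per kb of transcript (64.4 to 282) and the regulatory genes 89.8 (13.5 to 231). Psma7, an alpha subunit, was highest at 282 CPM per kb and the base chaperone Psmd9 lowest at 13.5. In Ctrl spheroids the same genes stood at the ends, Psma7 at 211 CPM per kb and Psmd9 at 11.7. Within a group the spread between samples was a median CV of 5.44% over the members in 2D WT, 9.37% in 3D WT, 18.04% in the libraries labelled 3D Cxcl5-/- and 28.1% in M1-CM, so the last groups give the least precise values.

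The first comparison asks whether macrophage medium altered the subunit genes of spheroids, and no change was detected. Psmb5 was at 53.8, 74.9 and 81.5 CPM in Ctrl, at 58.6, 81.6 and 78.4 in M0-CM and at 74.8, 47.2 and 78.2 in M1-CM. The 3 groups overlapped, and the lowest value was that of replicate 2 of M1-CM. Psmb7 likewise was at 155 and 151 CPM in the other M1-CM samples and at 82.5 in that one, against 128 to 141 in Ctrl. With M0-CM, edgeR called 0 of 34 members higher and 0 lower (0% of 19207 genes tested in either direction), and the members' median log2 change was -0.01 beside -0.00 for all genes. With M1-CM against Ctrl, 0 members were called higher (0.0156% of all genes) and 0 lower (0%), at a median of -0.18 for core and -0.14 for regulatory genes beside 0.01 for all genes. With M1-CM against M0-CM, 0 were called higher (0.0156%) and 0 lower (0%), at medians of -0.16 and -0.09 beside -0.01. In all 3 comparisons 0 members had an unadjusted edgeR p under 0.05, and DESeq2 called 0. Without replicate 2 of M1-CM the members' median was 0.05 against Ctrl and 0.07 against M0-CM.

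The lid subunit Psmd11 holds the regulatory particle to the core. In replicate 2 of M1-CM it was at 84.2 CPM beside 55.2 and 57.4 in the other M1-CM samples. The median member lay 0.66 below the table's mean in that library (log2). Psmd7 and Psmc2 varied little between M1-CM samples, at 36.7 ± 0.717 and 40.4 ± 1.22 CPM per kb (SD, n = 3 each). They were not typical: over the members the CV in M1-CM ran from 1.96% to 44.7%, with a median of 28.1%. The catalytic subunits changed by -0.19 to 0.06 on the log2 scale across the 3 comparisons with SEs of 0.22 to 0.26. Of the related genes, 2 of the 3 immunoproteasome subunits were higher in every M1-CM sample than in any Ctrl sample without passing the test, Psmb8 by 1.77 (SE 0.59, edgeR adjusted p = 0.965) and Psmb9 by 1.36 (SE 0.36, adjusted p = 0.71). Among the core assembly chaperones, the other base and lid partners, the Nfe2l1 axis and the ubiquitin genes, 0 genes were called. Cxcl5 itself was 2.76 higher with M1-CM than in Ctrl (SE 0.17, edgeR adjusted p = 0.000474).

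**Figure D2:**
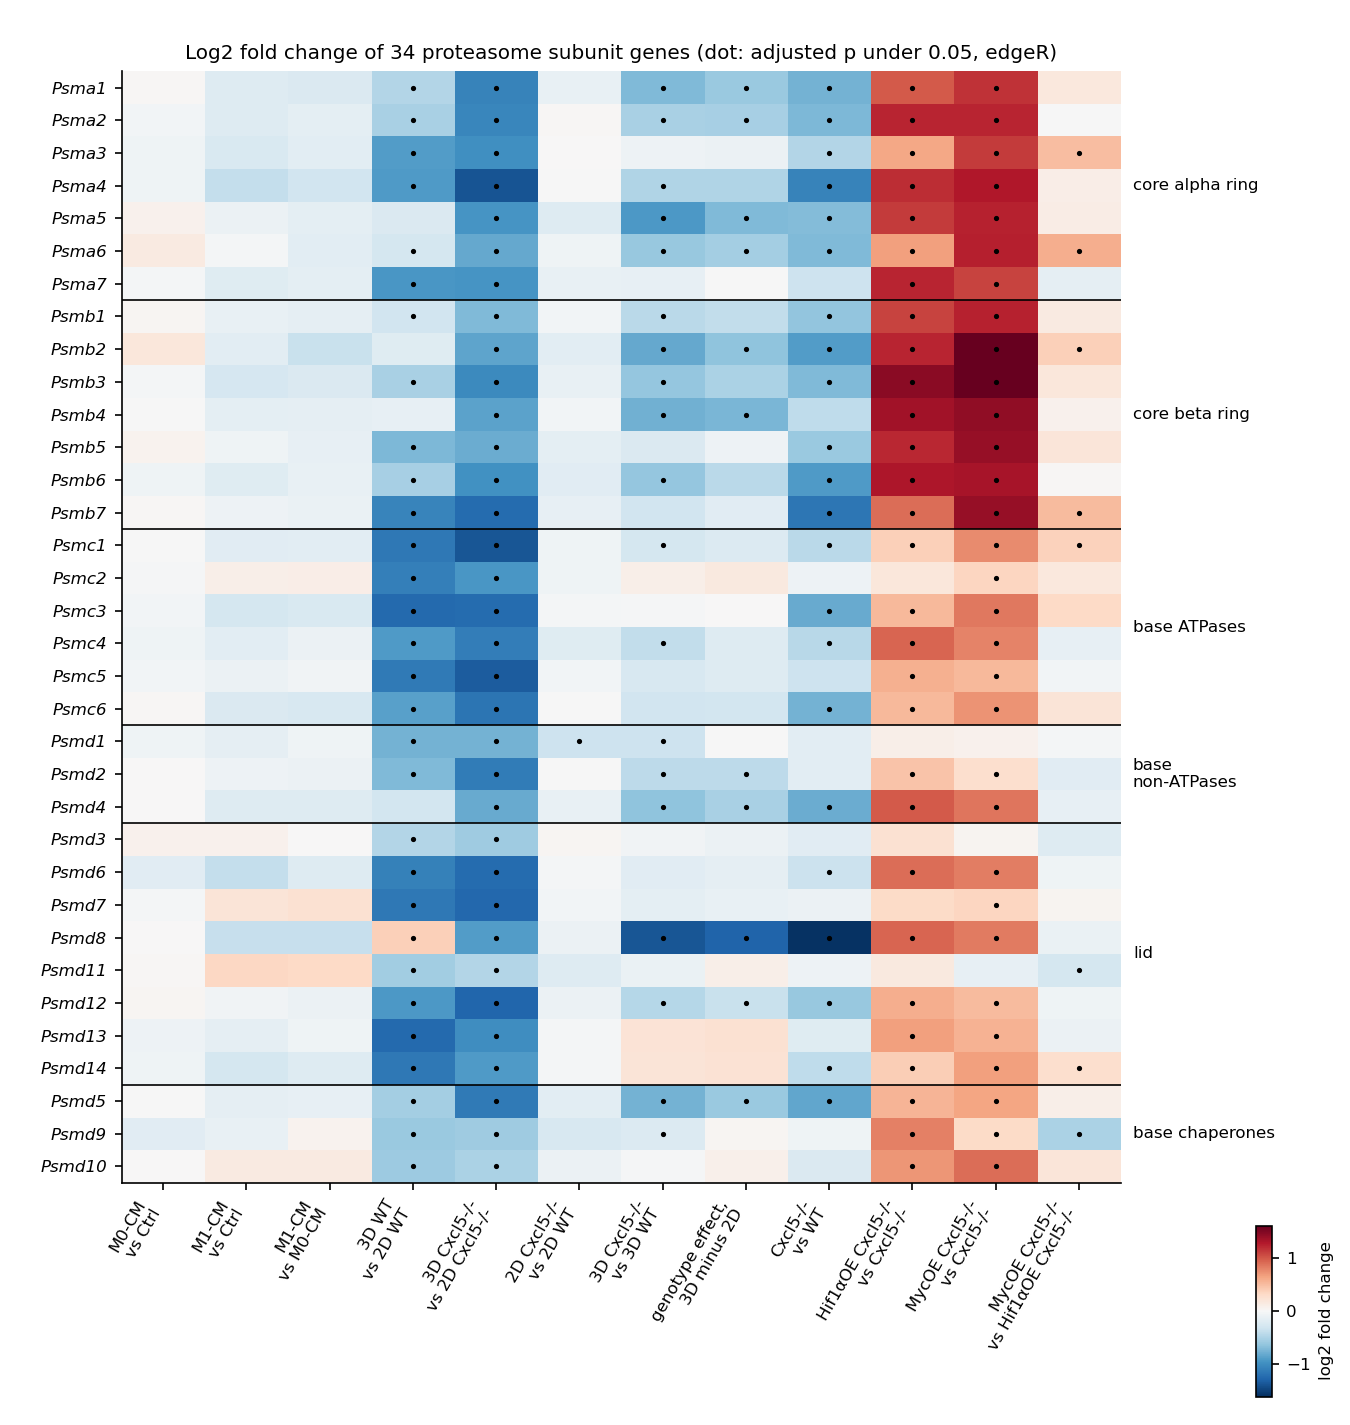
Log2 fold changes of the 34 subunit genes (rows, grouped by their place in the particle) in each comparison (columns), blue for lower and red for higher, with a dot where the edgeR adjusted p was under 0.05. The columns of conditioned media hold 0 dots, 3D against 2D culture is almost wholly blue, and the overexpression columns are red, most so in the core rings.

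The second comparison asks what growth in 3D does to unmodified cells. Subunit genes were lower in 3D WT than in 2D WT: 29 of 34 members fell and 1 rose, where 22.0% of the 21367 genes tested fell and 22.2% rose. The summed core genes were at 2415, 2340 and 2459 CPM in 2D WT and at 1687, 1687 and 1554 CPM in 3D WT. The summed regulatory genes were at 3514 ± 152 CPM in 2D WT and 2113 ± 104 CPM in 3D WT (SD, n = 3 each). Both sums fell in every 3D sample below every 2D sample, and 31 of 34 members did so singly. How many of all genes separated in this way was not counted. The median log2 change was -0.52 over the core genes, of which 11 of 14 fell, and -0.89 over the regulatory genes, of which 18 of 20 fell and 1 rose, beside 0.00 over all genes. The ratio of the core sum to the regulatory sum was 0.670 to 0.694 in 2D WT and 0.765 to 0.790 in 3D WT, without overlap.

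By place in the particle, the 6 base ATPases all fell, by 0.87 to 1.24 on the log2 scale. Psmc3, an ATPase of the base ring, was at 375, 352 and 407 CPM in 2D WT and at 164, 175 and 141 CPM in 3D WT. Each 3D value was under every 2D value (log2 fold change -1.24, SE 0.12, edgeR adjusted p = 1.72e-06). In the lid 7 of 8 fell, with Psmd13 at 109, 92.7 and 109 CPM in 2D WT and at 44.7, 47.7 and 38.7 CPM in 3D WT. Psmd13 had the most negative change of all members (-1.25, SE 0.11, edgeR adjusted p = 7.36e-07). The 3 base chaperones fell by 0.54 to 0.60 and 2 of the 3 other base subunits fell.

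In the core, 6 of 7 alpha and 5 of 7 beta genes fell. Psmb7, with the trypsin-like site, was at 237, 231 and 233 CPM in 2D WT and at 111, 126 and 98.4 CPM in 3D WT. The groups were far apart (-1.06, SE 0.13, edgeR adjusted p = 2.2e-05). The chymotrypsin-like Psmb5 was at 84.6, 82.5 and 105 CPM against 57.4, 59.2 and 49.2 (-0.71, SE 0.11, adjusted p = 0.000121), and the caspase-like Psmb6 at 139, 131 and 153 CPM against 103, 95.2 and 94.1 (-0.53, SE 0.12, adjusted p = 0.00282). All 3 catalytic genes were thus lower in each 3D sample than in each 2D sample.

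Psmd8, a lid subunit that joins late in lid assembly, went the other way. It was at 228, 222 and 247 CPM in 2D WT and at 324, 280 and 306 CPM in 3D WT. All 3D samples exceeded all 2D samples (0.38, SE 0.12, edgeR adjusted p = 0.0184). The call did not hold without replicate 2 of 2D WT, without replicate 1 of 3D WT, or with scaling by library totals, where the change was 0.16 (adjusted p = 0.143). Per length, Psmd8 led the regulatory genes in 3D WT at 197 CPM per kb, while their median was 43.5.

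Of the related genes, 4 of 5 core assembly chaperones fell, the widest change being in Pomp, which guides assembly of the core (-0.82, SE 0.12, edgeR adjusted p = 7.88e-05). Of 6 other base and lid partners measured 5 fell, among them the deubiquitinase Uchl5 (-1.15, SE 0.13, adjusted p = 5.96e-06), and of 6 ubiquitin and activating enzyme genes 2 fell, with Rps27a, a ubiquitin-ribosomal fusion, at -0.54 (SE 0.12, adjusted p = 0.00172). The immunoproteasome moved apart from the constitutive subunits. Psmb8 was at 1.70, 1.74 and 1.59 CPM in 2D WT and at 51.6, 55.8 and 56.3 CPM in 3D WT (5.03, SE 0.30, edgeR adjusted p = 2.32e-08). Psmb9 rose by 5.76 (SE 0.23, adjusted p = 5.99e-10) from 0.246 ± 0.0746 to 13.2 ± 0.516 CPM (SD, n = 3 each), and Psmb10 was at 29.7 ± 1.81 and 30.8 ± 1.56 CPM (0.05, SE 0.11, adjusted p = 0.734).

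The Nfe2l1 axis did not move as a block. Nfe2l1 was at 104, 95.9 and 107 CPM in 2D WT and at 197, 170 and 159 CPM in 3D WT, higher in every 3D sample (0.78, SE 0.09, edgeR adjusted p = 1.13e-05). Of the 8 genes of the axis measured, 1 rose and 5 fell, Vcp, the segregase that frees Nfe2l1 from the endoplasmic reticulum, by 0.85 (SE 0.08, adjusted p = 2.43e-06).

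Markers of other cell types moved with 3D culture too. In 2D WT the leukocyte markers summed to 1.165 to 1.599 CPM and in 3D WT to 4.87 to 6.03 CPM, with 2 of the 3 tested called higher and Adgre1 and Tyrobp at 0 in both groups. The summed fibroblast and stroma markers went from 23.3 to 25.3 CPM up to 71.4 to 74.1 CPM, with 3 of 4 called higher, and the epithelial or ductal markers from 546 to 593 CPM up to 853 to 1097 CPM, with 4 of 5 called higher and 1 lower. Their part in the lower subunit genes was not tested.

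**Figure D3:**
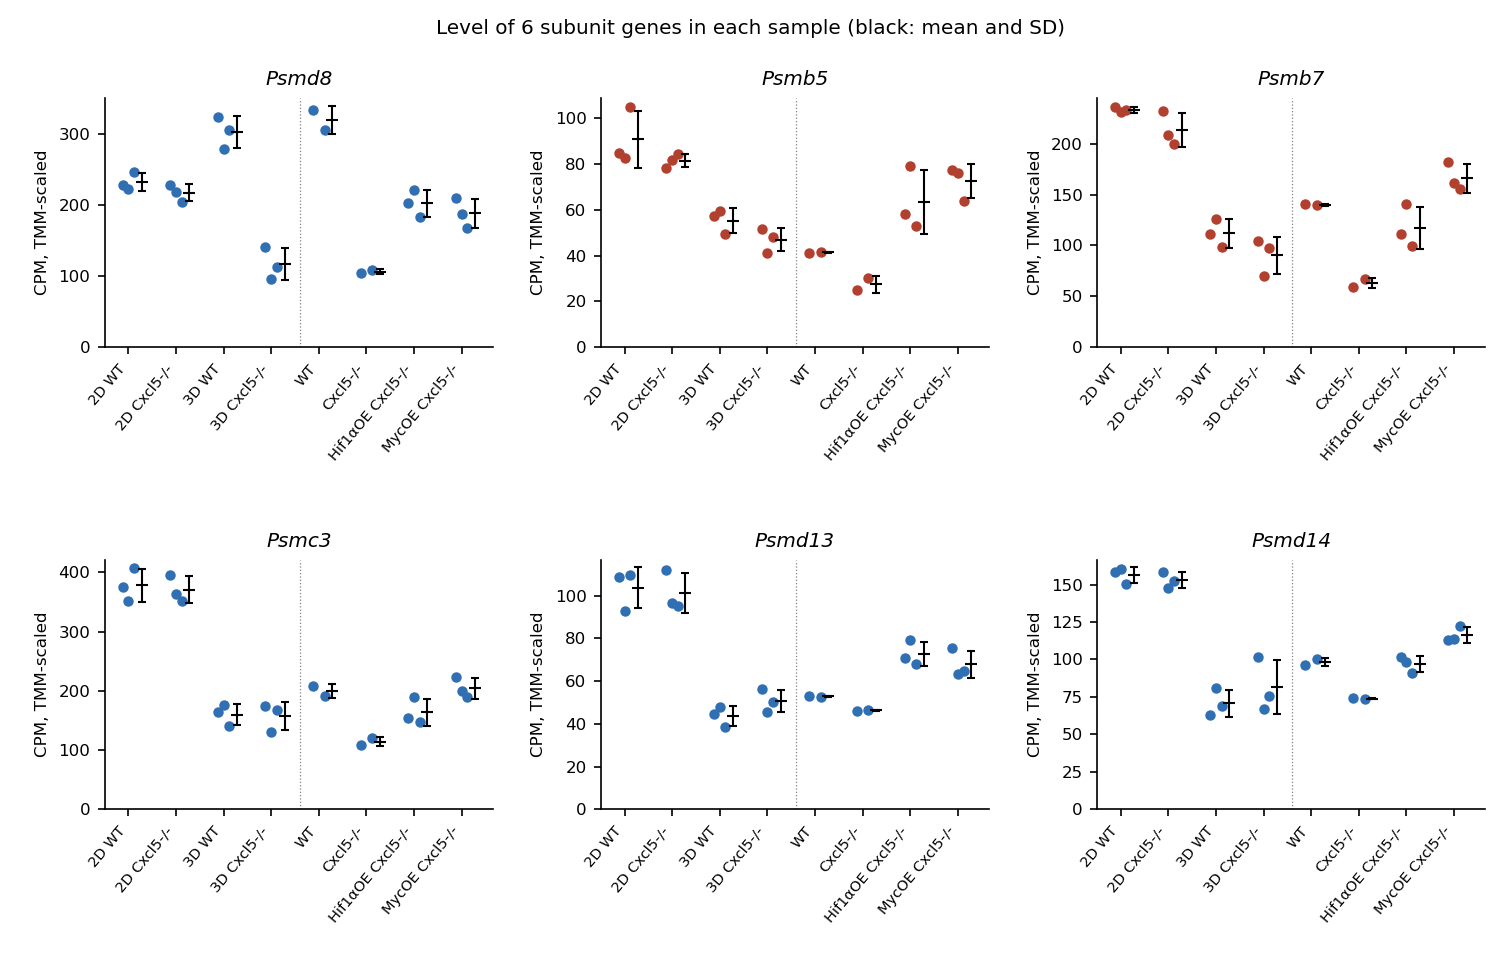
CPM (TMM-scaled, y axis from 0) of 6 subunit genes in each sample of the culture table (left of the dotted line) and of the overexpression series (right), with the group mean and SD in black. Psmb5, Psmb7, Psmc3, Psmd13 and Psmd14 lie lower in 3D than in 2D, and Psmd8 is highest in the WT spheroids of both tables; Psmd14 was added to the plot after its values were seen.

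In Cxcl5-/- cells the subunit genes were lower in 3D than in 2D as well. In the libraries labelled 3D Cxcl5-/-, 34 of 34 members were called lower than in 2D Cxcl5-/- (28.2% of all genes were) and 0 higher (28.7%), at medians of -0.95 for core and -1.05 for regulatory genes beside 0.11 for all genes. All 34 lay lower in each of these 3D samples than in each 2D Cxcl5-/- sample, a separation that was not counted over all genes. The alpha subunit Psma4 was at 201, 171 and 175 CPM in 2D and at 93.7, 54.9 and 61.1 CPM in 3D. Even the highest 3D library, replicate 1, was far under the 2D range (-1.38, SE 0.16, edgeR adjusted p = 5.61e-06). The base ATPase Psmc1 was at 193, 182 and 170 CPM against 70.7, 64.9 and 75.9 (-1.36, SE 0.10, adjusted p = 8.68e-08). The catalytic genes changed by -0.80 (Psmb5, SE 0.11, adjusted p = 3.31e-05), -0.96 (Psmb6, SE 0.12, adjusted p = 1.69e-05) and -1.24 (Psmb7, SE 0.14, adjusted p = 3.71e-06).

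Beside them, 4 of 5 core assembly chaperones fell, Psmg3 by 1.17 (SE 0.12, edgeR adjusted p = 1.71e-06), as did 5 of 6 other base and lid partners, Uchl5 by 1.14 (SE 0.13, adjusted p = 4.62e-06), and 3 of 6 ubiquitin and activating enzyme genes, Rps27a by 1.12 (SE 0.12, adjusted p = 2.32e-06). Of the Nfe2l1 axis 2 rose and 5 fell, with Syvn1, a ubiquitin ligase of the endoplasmic reticulum, 1.15 higher (SE 0.19, adjusted p = 0.000139) and Nfe2l1 0.30 higher (SE 0.09, adjusted p = 0.012, and 0.0802 without replicate 3 of the 3D libraries). Immunoproteasome genes again rose: Psmb9 by 4.82 (SE 0.23, adjusted p = 1.48e-09), Psmb10 by 0.50 (SE 0.11, adjusted p = 0.00133), and Psmb8 from 0.0445, 0 and 0 CPM to 3.39, 1.94 and 5.21 CPM.

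The third comparison asks what the loss of Cxcl5 does in each culture. In 2D, few members were called: 1 of 34 members was called lower in Cxcl5-/- (3.17% of all genes) and 0 higher (3.86%), at a median of -0.08 beside -0.02 for all genes, with 2 members at an unadjusted edgeR p under 0.05 in the lower direction and 0 in the higher, and 0 called higher by DESeq2. For 11 of 34 members every Cxcl5-/- sample lay below every WT sample, and for 0 above. This separation was not counted over all genes. The called gene was Psmd1, the large scaffold of the base, at 266, 277 and 296 CPM in WT and at 238, 223 and 205 CPM in Cxcl5-/-. The groups did not overlap (-0.33, SE 0.09, edgeR adjusted p = 0.0384), but the call was lost under several alternatives, among them the replicate block (0 called), DESeq2 size factors (adjusted p = 0.0563) and leaving out any 1 sample of 2D WT, 2D Cxcl5-/- or 3D WT. Psmb5 (-0.15, SE 0.11, adjusted p = 0.531), Psmb6 (-0.19, SE 0.12, adjusted p = 0.492) and Psmb7 (-0.13, SE 0.13, adjusted p = 0.708) were not called. Of the related lists, Psmb8 fell from 1.67 ± 0.0799 CPM (SD, n = 3) to 0.0445, 0 and 0 CPM, 2 of 8 genes of the Nfe2l1 axis rose, with Ngly1 at 0.37 (SE 0.09, adjusted p = 0.0221; lost without the filter on low counts, adjusted p = 0.0608, and without replicate 1 or 3 of WT or 1 or 2 of Cxcl5-/-, adjusted p from 0.0568 to 0.0838), and 0 of the chaperones, partners and ubiquitin genes were called.

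In 3D, members were lower in the libraries labelled Cxcl5-/- than in WT, and more of them in the core. Of 34 members 19 were called lower (25.3% of all genes) and 0 higher (19.7%; DESeq2 called 18 and 0, and 0 had an unadjusted edgeR p under 0.05 in the higher direction). The shares are of edgeR calls, not of DESeq2 calls. In the core 10 of 14 fell, at a median of -0.56, and in the regulatory particle 9 of 20, at a median of -0.24, beside -0.04 for all genes. The summed core genes were at 1687, 1687 and 1554 CPM in 3D WT, against 1423, 935 and 1119 CPM under the 3D Cxcl5-/- label. The groups did not overlap, but the labelled replicates 1 to 3 were unlike each other. The ratio of the core sum to the regulatory sum was 0.821, 0.651 and 0.678 in them, beside 0.765 to 0.790 in 3D WT. Labelled replicate 1 lay above every WT sample in this ratio, and labelled replicates 2 and 3 lay below. Without labelled replicate 2 of 3D Cxcl5-/- 13 members were called lower, and without labelled replicate 1, 24.

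With scaling by library totals in place of TMM, 6 members were lower and 5 higher in this comparison. That scaling shifted the all-gene median from -0.04 up to 0.35, and calls over all genes from 4218 higher and 5397 lower to 7671 higher and 2445 lower. The members' median less that of all genes was -0.28 with TMM, -0.29 with library totals, and -0.06 without the filter on low counts, where 41215 genes were tested.

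Psmd8 had the widest change. It was at 324, 280 and 306 CPM in 3D WT, against 142, 96.6 and 113 CPM under the 3D Cxcl5-/- label. Every WT value was above every value of the other group (-1.37, SE 0.12, edgeR adjusted p = 1.03e-06). The alpha subunit Psma5 followed, at 129, 122 and 108 CPM against 78.4, 53.0 and 58.7 (-0.92, SE 0.13, adjusted p = 7.76e-05). Of the catalytic genes Psmb6 fell, from 103, 95.2 and 94.1 CPM to 77.3, 51.0 and 62.5 (-0.61, SE 0.12, adjusted p = 0.00116), a call lost with library totals (-0.24, adjusted p = 0.0523). Psmb5 (-0.24, SE 0.11, adjusted p = 0.0961) and Psmb7 (-0.31, SE 0.13, adjusted p = 0.0766) overlapped between the groups and were not called, and both were above 0 with library totals, at 0.14 and 0.06. Both were called lower without labelled replicate 1 of 3D Cxcl5-/- (-0.34, edgeR adjusted p = 0.0358, and -0.45, adjusted p = 0.0155). The same held without replicate 3 of 3D WT (adjusted p = 0.0421 and 0.0359), and for Psmb5 without replicate 3 of 2D WT (adjusted p = 0.0472).

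By place, 5 of 7 alpha genes, 5 of 7 beta genes, 2 of 6 base ATPases, the 3 other base subunits, 2 of 8 lid genes and 2 of 3 base chaperones fell. Of the related genes, 4 of 5 core assembly chaperones fell, with Psmg1 at -0.48 (SE 0.13, edgeR adjusted p = 0.0068), and of the other base and lid partners 3 fell and 1 rose, with the deubiquitinase Usp14 at -0.50 (SE 0.08, adjusted p = 0.000179). Both single-gene calls were lost with library totals. Of the ubiquitin genes 2 rose and 3 fell. Psmb8 fell by 3.95 (SE 0.28, adjusted p = 1.46e-07) and Psmb9 by 1.00 (SE 0.17, adjusted p = 0.000377). Nfe2l1 fell by 0.37 (SE 0.09, adjusted p = 0.00444), which library totals turned to 0.02 (adjusted p = 0.922), and of its axis 3 rose and 3 fell, with the protease Ddi2, which activates Nfe2l1, 0.60 higher (SE 0.08, adjusted p = 3.88e-05).

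The difference between the genotype effect in 3D and that in 2D was tested directly. It was called more negative in 3D for 11 of 34 members (16.1% of all genes) and more positive for 0 (11.1%; 0 members at an unadjusted edgeR p under 0.05, and 0 by DESeq2). In the core 6 of 14 were called, at a median of -0.49, and in the regulatory particle 5 of 20, at -0.13, beside -0.05 for all genes. Psmd8 differed by -1.28 (SE 0.17, edgeR adjusted p = 0.000125), being -1.37 in 3D and -0.10 in 2D. Next came the beta subunit Psmb4 with -0.73 (SE 0.16, adjusted p = 0.00401), at 204, 187 and 177 CPM in 3D WT against 133, 93 and 107 CPM under the 3D Cxcl5-/- label, while the 2D groups were at 207 ± 5.66 and 201 ± 8.18 CPM (SD, n = 3 each). The count of members was 3 without replicate 1 of 2D Cxcl5-/-, 4 without replicate 2 labelled 3D Cxcl5-/-, 6 without replicate 2 of 2D WT or replicate 3 of 2D Cxcl5-/-, and 7 without replicate 1 of 3D WT. With library totals, 2 were more negative and 4 more positive. The interaction was not called for Psmb5 (-0.08, SE 0.15, adjusted p = 0.749), Psmb6 (-0.43, SE 0.17, adjusted p = 0.085) or Psmb7 (-0.18, SE 0.19, adjusted p = 0.532). Without labelled replicate 1 of 3D Cxcl5-/- the term for Psmb6 was called, at -0.64 (edgeR adjusted p = 0.0029). With library totals the terms for Psmb5 and Psmb7 were above 0, at 0.27 and 0.17, and not called.

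Marker levels moved with the same groups. The summed fibroblast and stroma markers were at 204 to 234 CPM under the 3D Cxcl5-/- label, above 3D WT, but 1 gene carried that sum: Pdgfra averaged 21.4 CPM in 3D WT and 214 CPM there, while 2 of the 4 genes tested were called lower and the median change was -0.94. The summed epithelial or ductal markers were at 217 to 236 CPM there, below 3D WT, with 3 of 5 called lower and 1 higher. In 2D the fibroblast markers were at 9.31 to 10.99 CPM in Cxcl5-/- (2 of 4 called lower) and the epithelial markers at 450 to 484 CPM (2 of 5 lower, 1 higher), each below 2D WT. The leukocyte markers summed to 0.948 to 1.64 CPM in 2D Cxcl5-/- and 5.28 to 8.28 CPM under the 3D label, where 0 of 3 were called against 3D WT, and the acinar markers to at most 1.17 CPM in that table. The part of these shifts in the subunit genes was not tested.

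The fourth comparison repeats 3D Cxcl5-/- against WT in other libraries. Members were again lower: 22 of the 36 tested here were called lower in Cxcl5-/- (24.3% of 28730 genes) and 0 higher (17.6%; 0 at an unadjusted edgeR p under 0.05 in that direction, while DESeq2 called 29 lower and 0 higher). These shares are of edgeR calls, and the share of all genes that DESeq2 called is not given. In the core 12 of 14 fell, at a median of -0.71, and in the regulatory particle 10 of 20, at -0.34, beside -0.30 for all genes. Psmd8 was at 333 and 306 CPM in WT and at 104 and 109 CPM in Cxcl5-/-. It again had the widest change (-1.59, SE 0.12, edgeR adjusted p = 2.55e-06). Psmb7 was next, at 141 and 139 CPM against 59.6 and 66.6 (-1.15, SE 0.15, adjusted p = 9.78e-05). Psmb6 was at 107 and 104 CPM against 52.8 and 59.9 (-0.91, SE 0.16, adjusted p = 0.00085) and Psmb5 at 41.2 and 41.5 against 24.8 and 30.2 (-0.59, SE 0.18, adjusted p = 0.0214), a call lost without the filter on low counts (adjusted p = 0.0575), without either WT sample (adjusted p = 0.0562 and 0.0632) and without replicate 1 of Cxcl5-/- (-0.46, adjusted p = 0.153). All 3 catalytic genes lay lower in both Cxcl5-/- samples than in both WT samples.

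The tissue-restricted members passed the filter in this series alone. Psma8 had 10 counts in each WT library and at most 3 elsewhere in the series, and Psmb11 had 18 counts in each WT library and 17 in replicate 3 of Hif1αOE Cxcl5-/-. At these counts no fold is given, and neither was called in any comparison. Of the related genes 4 of 5 core assembly chaperones fell, Psmg4 by 0.79 (SE 0.15, edgeR adjusted p = 0.00154), 3 of 6 other partners fell and 2 rose, with the small lid protein Sem1 at -0.70 (SE 0.15, adjusted p = 0.00421), and 4 of 6 ubiquitin genes fell and 1 rose, with Rps27a at -1.06 (SE 0.17, adjusted p = 0.000497). Of the Nfe2l1 axis 3 rose and 1 fell, Syvn1 being 0.64 higher (SE 0.10, adjusted p = 0.000372), and Nfe2l1 was at 174 ± 4.03 and 194 ± 7.17 CPM (SD, n = 2 each; 0.16, SE 0.08, adjusted p = 0.144). Psmb8 fell by 2.94 (SE 0.30, adjusted p = 1.87e-05) and Psmb9 by 1.01 (SE 0.33, adjusted p = 0.032), the latter call being lost without the filter on low counts (adjusted p = 0.0681) and without replicate 2 of WT or either Cxcl5-/- sample (adjusted p from 0.0535 to 0.187).

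The 2 comparisons of Cxcl5-/- with WT in 3D share no libraries. Of 34 members, 31 were lower in both, and the 15 called lower in both were 15 of the 19 called in the first and 15 of the 22 called in the second. Of all genes tested, 25.3% were called lower in the first and 24.3% in the second. The share of all genes lower in both was not counted. The other 3 members were above 0 in the first and below 0 in the second. Psmd8 stood at the low end of both.

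**Figure D4:**
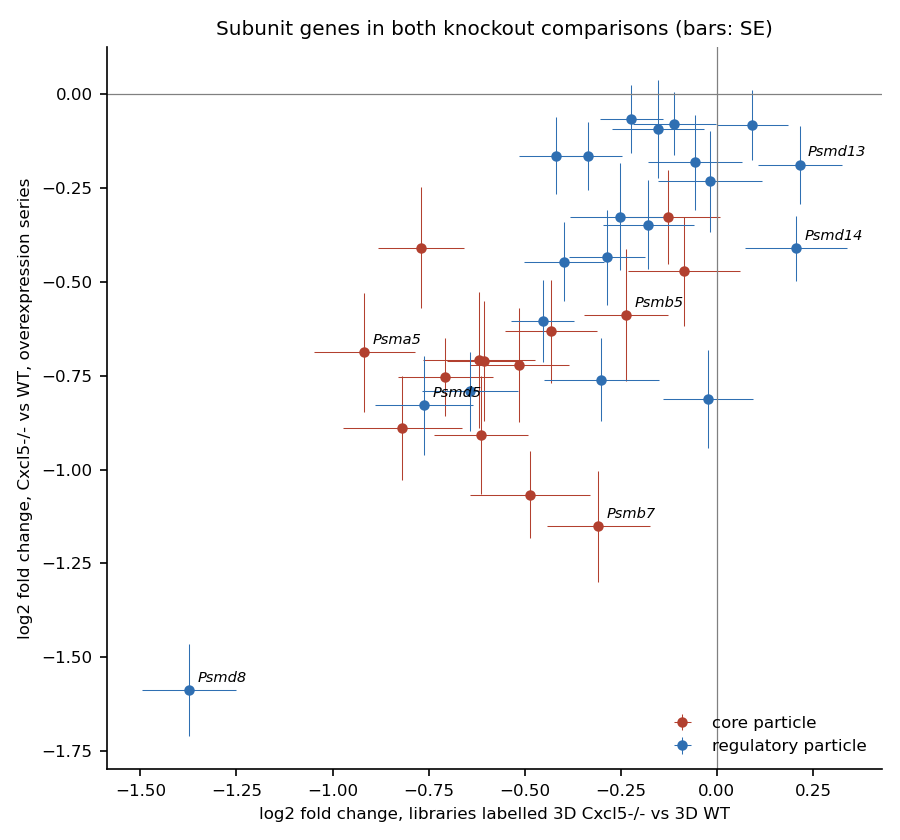
Log2 fold change of each of 34 members in the libraries labelled 3D Cxcl5-/- against 3D WT (x axis) and in Cxcl5-/- against WT of the overexpression series (y axis), with SE bars, core in red and regulatory in blue. Psmd8 lies apart at -1.37 and -1.59, and the core genes lie mostly lower than the regulatory genes on both axes; the names printed were chosen after the values were seen.

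The last comparisons ask what Hif1α or Myc does when added to Cxcl5-/- spheroids. Both came with higher subunit genes, above all in the core. With Hif1αOE, 29 of 36 members tested were called higher (20.5% of all genes) and 0 lower (15%), and with MycOE 31 were called higher (21.6%) and 0 lower (18%). In the lower direction 0 members had an unadjusted edgeR p under 0.05 in either comparison, and DESeq2 called 0. Both share the same 2 Cxcl5-/- samples, so they are not independent of each other. The samples hold no Cxcl5-/- group with an empty vector. The added gene therefore cannot be told apart from the further transduction and selection. Scaling by library totals shifted the all-gene medians from 0.16 to 0.00 and from 0.11 to -0.11, and with them the members' medians from 0.85 to 0.62 and from 0.82 to 0.48. These members' medians include Psma8 and Psmb11, which were near the floor. Over the other 34 members the medians with TMM were 0.75 with Hif1αOE and 0.83 with MycOE. All 14 core genes rose in each, at medians of 1.19 with Hif1αOE and 1.26 with MycOE. Of the 20 regulatory genes 15 rose with Hif1αOE and 17 with MycOE, at medians of 0.53 and 0.59, beside 0.16 and 0.11 for all genes.

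The summed core genes were at 904 and 954 CPM in Cxcl5-/-, at 1916, 2354 and 1704 CPM in Hif1αOE Cxcl5-/- and at 2434, 2275 and 2046 CPM in MycOE Cxcl5-/-. Every overexpression sample was above both Cxcl5-/- samples and also above both WT samples, which were at 1511 and 1509 CPM. The summed regulatory genes were at 1472 and 1484 CPM in Cxcl5-/-, 1949 to 2336 CPM with Hif1αOE and 2071 to 2275 CPM with MycOE, ranges that include the 2202 and 2082 CPM of WT. The ratio of the core sum to the regulatory sum was 0.614 and 0.643 in Cxcl5-/-, 0.686 and 0.725 in WT, 0.874 to 1.01 with Hif1αOE and 0.988 to 1.08 with MycOE. The ranges of Cxcl5-/- and WT overlapped neither each other nor those of the overexpression groups, and those of the overexpression groups overlapped.

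The beta subunit Psmb3 was at 35.7 and 43.3 CPM in Cxcl5-/-, at 102, 135 and 84.9 with Hif1αOE and at 128, 125 and 112 with MycOE. It led both comparisons, at 1.44 (SE 0.17, edgeR adjusted p = 5.63e-05) and 1.62 (SE 0.17, adjusted p = 1.91e-05). With Hif1αOE the beta subunit Psmb4 was next, at 64.9 and 73.1 CPM in Cxcl5-/- and 170, 211 and 145 CPM (1.34, SE 0.15, adjusted p = 4.17e-05). With MycOE the beta subunit Psmb2 was next, at 43.2 and 42.8 CPM in Cxcl5-/- and 141, 142 and 111 CPM (1.61, SE 0.13, adjusted p = 2.93e-06). In all of these the groups were apart.

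The catalytic genes rose in both. Psmb5 was at 24.8 and 30.2 CPM in Cxcl5-/-, at 58.1, 79 and 53 with Hif1αOE (1.20, SE 0.17, edgeR adjusted p = 0.000165) and at 77.3, 75.9 and 63.8 with MycOE (1.40, SE 0.17, adjusted p = 4.65e-05). Psmb6 was at 52.8 and 59.9 CPM, at 128, 167 and 120 (1.29, SE 0.15, adjusted p = 4.26e-05) and at 151, 146 and 122 (1.31, SE 0.15, adjusted p = 2.91e-05). Psmb7 was at 59.6 and 66.6 CPM, at 111, 141 and 99.96 (0.89, SE 0.14, adjusted p = 0.000329) and at 182, 161 and 155 (1.40, SE 0.14, adjusted p = 1.16e-05). No overexpression sample reached down to a Cxcl5-/- sample. Psmd8 was at 202, 222 and 183 CPM with Hif1αOE and 209, 188 and 168 CPM with MycOE, above the 104 and 109 of Cxcl5-/- and under the 333 and 306 of WT.

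The related genes of assembly rose with the core. All 5 core assembly chaperones were called higher in both, led by Psmg3 with Hif1αOE (1.61, SE 0.22, edgeR adjusted p = 0.000162) and Psmg1 with MycOE (1.38, SE 0.15, adjusted p = 2.62e-05). Of 6 other base and lid partners 4 rose with Hif1αOE and 2 with MycOE, Sem1 by 1.30 (SE 0.15, adjusted p = 3.67e-05) and 1.31 (SE 0.15, adjusted p = 2.6e-05). Of 6 ubiquitin genes 5 rose with Hif1αOE, and 3 rose and 1 fell with MycOE.

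The immunoproteasome genes divided. Psmb9 was not called in either comparison by the main test. With MycOE it was called lower under some alternatives, among them library totals (-1.12, edgeR adjusted p = 0.00646) and the DESeq2 Wald test (-0.81, adjusted p = 0.048). Psmb10 rose, by 0.60 (SE 0.14, edgeR adjusted p = 0.00654, and 0.0815 without replicate 1 of Cxcl5-/-) and 1.07 (SE 0.14, adjusted p = 0.000113), while Psmb8 fell from 1.68 and 1.75 CPM to 0.275, 0.210 and 0.145 CPM with Hif1αOE (-3.02, SE 0.30, adjusted p = 1.82e-05) and to 0.360, 0.413 and 0.617 CPM with MycOE (-1.87, SE 0.28, adjusted p = 0.000263). Nfe2l1 was not called with Hif1αOE (-0.11, SE 0.08, adjusted p = 0.26) and fell by 0.59 with MycOE (SE 0.07, adjusted p = 7.36e-05). Of its axis 1 rose and 1 fell with Hif1αOE and 4 fell with MycOE, with Ddi2 at -0.88 (SE 0.09, adjusted p = 1.64e-05) and -0.69 (SE 0.09, adjusted p = 7.14e-05).

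MycOE and Hif1αOE differed little in the members. Set against each other, 6 members were higher with MycOE (9.54% of all genes) and 2 lower (9.73%), at a median of 0.16 for core and -0.06 for regulatory genes beside -0.01 for all genes. The alpha subunit Psma6 was at 154, 136 and 120 CPM with MycOE and 80.1, 111 and 82.4 CPM with Hif1αOE, apart in all samples (0.59, SE 0.13, edgeR adjusted p = 0.00784). Psmb7 differed by 0.50 (SE 0.12, adjusted p = 0.011). The base chaperone Psmd9 was lower with MycOE, at 26.9, 26.1 and 24.8 CPM against 35.3, 38.2 and 36.7 (-0.50, SE 0.07, adjusted p = 0.000526), as was Psmd11, at 67.7, 67.3 and 66.6 CPM against 77.2, 85.6 and 82.3 (-0.28, SE 0.07, adjusted p = 0.014). The number higher was 2 without replicate 3 of Hif1αOE, 3 without its replicate 1 or without replicate 1 of MycOE, and 11 without its replicate 2. With library totals 7 members were lower. Psmb5 (0.19, SE 0.14, adjusted p = 0.416) and Psmb6 (0.02, SE 0.13, adjusted p = 0.965) were not called, though Psmb5 was without replicate 2 of Hif1αOE (0.38, adjusted p = 0.0299). Of the related lists, 1 core assembly chaperone rose and 1 fell, with Psmg2 at 0.71 (SE 0.11, adjusted p = 0.000622), 1 partner rose and 1 fell, with Txnl1 at 0.35 (SE 0.06, adjusted p = 0.00272), 2 ubiquitin genes rose and 3 fell, with Rps27a at 0.70 (SE 0.14, adjusted p = 0.00402), 2 immunoproteasome subunits rose (Psmb8 and Psmb10, calls lost without replicate 3 of Hif1αOE among other samples), and 5 genes of the Nfe2l1 axis fell, Nfe2l1 by 0.47 (SE 0.07, adjusted p = 0.000506). Psmb9 was not called by the main test. Some alternatives called it lower with MycOE, among them library totals (-0.91, edgeR adjusted p = 0.0256) and the replicate block (-0.77, adjusted p = 0.0209).

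The fibroblast and stroma markers moved in this series as well, from 20.3 to 23.7 CPM in WT to 269.4 to 269.6 CPM in Cxcl5-/-, 26.0 to 44.7 CPM with Hif1αOE and 147 to 170 CPM with MycOE. Of the 5 tested, 4 were called higher in Cxcl5-/- against WT, and 4 were called lower with Hif1αOE and 3 with MycOE against Cxcl5-/-. The epithelial or ductal markers were at 856 to 903 CPM in WT, 287 to 302 in Cxcl5-/-, 705 to 837 with Hif1αOE and 267 to 312 with MycOE, 3 of 6 being lower in Cxcl5-/-, 4 higher and 1 lower with Hif1αOE, and 2 higher with MycOE. The leukocyte markers summed to at most 11.6 CPM and the acinar markers to at most 0.816 CPM. Their part in the subunit genes was not tested.

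Transcript length moved with several of these results. Core genes have shorter principal transcripts (766 to 2911 bases, median 1162.5) than regulatory genes (1316 to 4397, median 1710.5). In Cxcl5-/- against WT of the overexpression series, protein-coding genes of up to 1000 bases had a median log2 change of -0.67 and those over 5000 bases 0.00, and in the libraries labelled 3D Cxcl5-/- against 3D WT these were -0.40 and 0.13. With Hif1αOE they were 0.98 and -0.11, and with MycOE 1.02 and -0.13. In 3D WT against 2D WT the difference between length classes was smaller, -0.09 and 0.06.

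Set against the median of their own length class, the members kept most of the 3D fall: -0.45 for core and -0.87 for regulatory genes in WT, and -0.63 and -0.86 in Cxcl5-/-. In the libraries labelled 3D Cxcl5-/- against 3D WT they were at -0.23 and -0.03, and in the overexpression series Cxcl5-/- against WT at -0.23 and 0.04, so the regulatory genes there lay near other genes of their length. With Hif1αOE they were at 0.39 and 0.16 and with MycOE at 0.62 and 0.17. With the exon union as the length, the core and regulatory values of the 3D fall became -0.48 and -0.85 in WT and -0.83 and -0.97 in Cxcl5-/-. They became -0.36 and -0.09 in the libraries labelled 3D Cxcl5-/- against 3D WT. In Cxcl5-/- against WT of the overexpression series they became -0.25 and -0.003. With Hif1αOE they became 0.68 and 0.18, and with MycOE 0.88 and 0.30. The part of length in these changes was not tested.

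**Figure D5:**
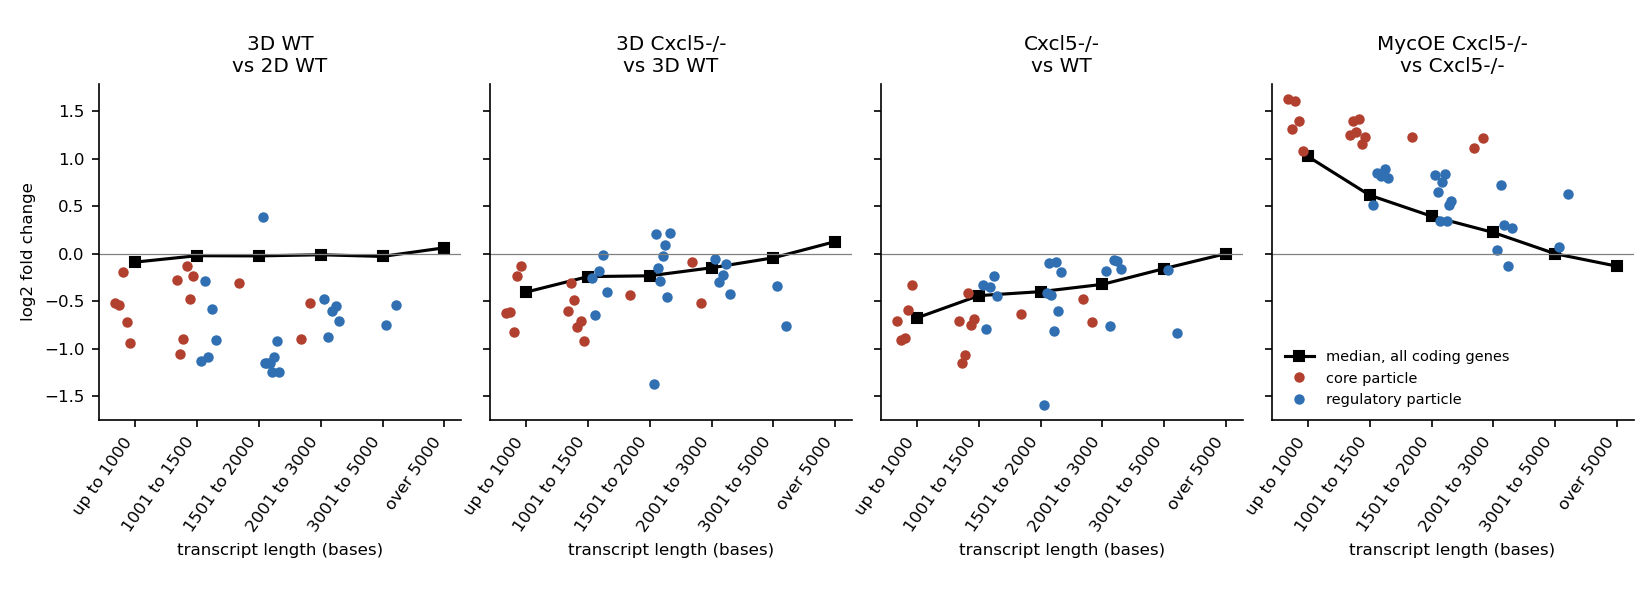
Log2 fold change (y axis) of the core (red) and regulatory (blue) genes by class of principal transcript length in bases (x axis), with the median of all protein-coding genes of each class as black squares, for 4 comparisons. In 3D WT against 2D WT the black line is nearly level and all members but Psmd8 lie below it, while with MycOE the line falls from 1.02 to -0.13 and the core genes lie above it.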

How the data were processed

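The deposited values are whole-number counts per gene in 3 tables, which the authors made from stranded total RNA libraries with HISAT2 and StringTie on GRCm38 (mm10). Versions, the annotation release and the step from transcripts to gene counts are not given in the sources used here. Totals of 41542533 to 78498230 counts per library set the precision. Each table was fitted separately with edgeR 4.0.16 (R 4.3.3), since the tables may differ in processing: TMM scaling, filterByExpr by group, the quasi-likelihood test over all genes fitted to every group of the table, with p-values adjusted after Benjamini and Hochberg. A gene was called at an adjusted p under 0.05, and SE is the fold change divided by the square root of F. CPM were scaled with the TMM factors.

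The alternatives were DESeq2 1.42.0 (size factors, and its Wald test), library totals, no filter, a minimum of 10 counts per sample, a fit of the compared groups alone, the replicate number as a block, summed entries of a symbol, an absolute log2 fold change above 1, and each sample left out in turn. The edgeR script was tested on simulated data. Gene positions and lengths came from GENCODE M21 (GRCm38), and promoters from RefSeq (GRCm38.p6). Length was the principal transcript, a choice made after lengths of the exon union had been seen, and both were run.

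The members and all gene lists were chosen with earlier results of these data known. Named were the catalytic subunits, up to 2 members in each direction per comparison with the largest called change and groups that did not overlap, called members that went against most others, and at most 1 further gene per related list, beside Psmb8, Psmb9, Psmb10, Nfe2l1, Cxcl5, Hif1a and Myc. Psmd11, Psmd7 and Psmc2 in M1-CM and the names printed in the plot of both 3D comparisons of Cxcl5-/- with WT lie outside this rule. They were picked with their values seen. Some single genes of the ubiquitin list are not reported here.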

Additional observations from a re-analysis of the deposited data

Results flagged for a closer look

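For 11 of 34 members the difference between Cxcl5-/- and WT was itself different in 3D and in 2D (edgeR interaction term, adjusted p under 0.05). All 11 went toward a lower level in the libraries labelled 3D Cxcl5-/-, a direction called for 16.1% of all genes. Less the median of their own length class, the core genes had a median term of -0.17 and the regulatory genes 0.08. The part of length was not tested. On the log2 scale the term was -1.28 for the lid subunit Psmd8. In the beta ring it was -0.73 for Psmb4 and -0.65 for Psmb2. In the alpha ring it was -0.71 for Psma5, -0.59 for Psma1, -0.54 for Psma6 and -0.53 for Psma2. In the base it was -0.52 for the ubiquitin receptor Psmd4, -0.41 for the scaffold Psmd2 and -0.59 for the base chaperone Psmd5, and in the lid -0.36 for Psmd12. The adjusted p ranged from 0.000125 for Psmd8 to 0.0453 for Psma2. The terms rest on the label of the 3D libraries: against 3D WT, Cxcl5 differed there by 0.91, against the label, and Hif1a and Myc by -1.21 and -1.75.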

How the results depend on the processing

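The replicate numbers did not pair the samples: same-numbered samples' deviations from their group means correlated at -0.10 to 0.18 in the culture table, -0.24 to 0.36 in conditioned media and -0.02 to 0.05 in the overexpression series. With the replicate number as a block, 0 members were called lower in 2D Cxcl5-/- against WT, 30 were lower in 3D WT against 2D WT and 19 in the libraries labelled 3D Cxcl5-/- against 3D WT.

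In 2D Cxcl5-/- against WT, 0 members were also lower with DESeq2 size factors, library totals, no filter or a log2 change above 1, and 0 to 1 with a sample left out. In 3D WT against 2D WT, a log2 change above 1 left 0 members higher and 9 lower, library totals left 0 higher, and leaving out a sample gave 0 to 1 higher and 27 to 30 lower. In the libraries labelled 3D Cxcl5-/- against 3D WT, library totals gave 5 members higher and 6 lower, at least 10 counts in every sample gave 1 higher, a log2 change above 1 left 1 lower, and leaving out a sample gave 0 to 1 higher and 13 to 24 lower. Against 2D Cxcl5-/-, 15 were lower by more than 1. For the difference of genotype effects, library totals gave 4 members more positive and 2 more negative, no filter gave 3 more negative, at least 10 counts gave 7, a log2 change above 1 gave 1, and leaving out a sample gave 3 to 16. In the overexpression series, a log2 change above 1 left 3 members lower in Cxcl5-/- against WT, 10 higher with Hif1αOE, 14 higher with MycOE, and 0 higher and 0 lower between them. With MycOE against Cxcl5-/-, library totals gave 2 lower and at least 10 counts gave 1 lower. Between MycOE and Hif1αOE, library totals gave 7 lower, and leaving out a sample gave 2 to 11 higher. Nfe2l1 in the libraries labelled 3D Cxcl5-/- against 3D WT turned from -0.37 to 0.016 with library totals. The cause was not tested in any of these. Here and above, shares of all genes stand beside the main edgeR counts only. The counts under alternatives show how far the calls held, not how the members compare with other genes.

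Library totals moved the calls over all genes from 4752 higher and 4707 lower to 3563 and 6712 in 3D WT against 2D WT, from 2376 and 3431 to 4585 and 1359 for the difference of genotype effects, from 5904 and 4308 to 4335 and 5604 with Hif1αOE, from 6205 and 5167 to 4271 and 7482 with MycOE, and from 2742 and 2796 to 1982 and 3504 between them. Of the named genes' alternative values, 94 lost a call, 31 gained one, 10 without a call moved, 1 reversed and 3270 stayed on the same side of the threshold.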

Other observations

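Genes that feed the proteasome or cap it in other ways held calls in both directions. Of 7 ubiquitin shuttles, which carry tagged proteins to the particle, 1 rose and 2 fell in 3D WT against 2D WT (22.2% and 22.0% of all genes tested), with Zfand5 at 162 ± 4.75 CPM in 2D and 250.1 ± 15.7 CPM in 3D (SD, n = 3 each; log2 fold change 0.62, SE 0.09, edgeR adjusted p = 5.51e-05). In the libraries labelled 3D Cxcl5-/- against 3D WT 2 rose and 3 fell (19.7% and 25.3%), and in Cxcl5-/- against WT of the overexpression series 3 rose and 2 fell (17.6% and 24.3%). Ubqln2 rose in both, by 1.73 (SE 0.22, adjusted p = 2.47e-05) and 2.14 (SE 0.15, adjusted p = 1.14e-06). With Hif1αOE 3 shuttles rose and 2 fell (20.5% and 15%), and with MycOE 3 rose and 3 fell (21.6% and 18%), Ubqln2 by 1.57 (SE 0.13, adjusted p = 2.55e-06).

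Read against the same shares, of 5 activators and inhibitors 1 rose and 2 fell in 3D WT against 2D WT, with the nuclear activator Psme3 at 47.4 ± 3.22 CPM in 2D and 29.6 ± 2.82 CPM in 3D (SD, n = 3 each; -0.68, SE 0.10, edgeR adjusted p = 5.98e-05). In the libraries labelled 3D Cxcl5-/- 1 rose and 1 fell, the latter being the interferon-responsive Psme2 (-0.41, SE 0.11, adjusted p = 0.00821), a call lost with library totals (-0.03, adjusted p = 0.85), without the filter on low counts (adjusted p = 0.0783) and without replicate 2 of these libraries (adjusted p = 0.072). In Cxcl5-/- of the overexpression series 1 rose, Psme4, by 0.58 (SE 0.09, adjusted p = 0.000477). With Hif1αOE and with MycOE 3 rose and 2 fell in each, Psme2 being 0.93 (SE 0.19, adjusted p = 0.00256) and 0.89 higher (SE 0.19, adjusted p = 0.00301).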
